A study of Rattus norvegicus with 28 samples.

Results

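This report describes 30 genes of the ubiquitin system in rat muscle, the E2 conjugating enzymes, the E3 ligases and their adaptors, and the deubiquitinases, among 32883 genes counted. They are all genes in the study's Supplemental File 1 whose symbols begin with Trim, Rnf, Fbxo, Fbxl, Fbxw, Ube2, Ube3, Usp, Klhl, Asb or Cul, except 1 gene left out by the rule, matched to the counts by the Ensembl identifier given there. The copy of that file used here names 1998 genes, and these are the genes with the smallest p-values of the study's own VDR-OE contrast. The list therefore selects genes that differed in that contrast and is not a census of these families. It held 6 E2 enzymes, 5 TRIM, 4 RNF, 3 F-box and 3 BTB-Kelch proteins, 1 cullin, 1 HECT ligase and 7 genes with the Usp prefix, and no Fbxw or Asb gene. The member nearest to the end of the list was Rnf144a, with a mean within-rat log2 ratio of 0.40 ± 0.36 (SD, n = 7) in the VDR-OE arm. Genes beyond the end of the list carry no name here.

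RNA-Seq of the tibialis anterior, a fast muscle of the shin, was performed on both legs of 14 male Wistar rats, 10 days after electrotransfer, in which electric pulses drive injected DNA into muscle fibres. The rats were 8 weeks old when housed, and were fasted overnight before collection. In 7 rats the right leg received a plasmid carrying the mouse vitamin D receptor (VDR-OE) and the left leg the empty plasmid (VDR-OE control). In the other 7 rats the right leg received a short hairpin RNA against Vdr (VDR-KD) and the left leg a scramble hairpin (VDR-KD control). The labels give pCAGGS as the backbone of the VDR plasmid and the study's methods give another, and those methods describe the injected material as lentiviral hairpin particles, where the labels name only the hairpins. The labels also call the VDR-OE and VDR-KD legs knock-in and knock-out. The construct was always in the right leg, so construct and side cannot be told apart. The arms used different rats and different control constructs, which cannot be told apart either.

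Ubiquitin is attached to proteins by a relay of an E1 activating enzyme, an E2 conjugating enzyme and an E3 ligase, which picks the substrate. RING-type ligases (TRIM and many RNF proteins) bring E2 and substrate together, and cullins are scaffolds that dock F-box or BTB-Kelch substrate adaptors. HECT ligases first take the ubiquitin onto themselves, and deubiquitinases of the Usp family take ubiquitin off again. In skeletal muscle this system feeds the proteasome and takes part in the turnover of contractile proteins, and ligases such as Trim63 (MuRF1) and Fbxo32 (atrogin-1) are best known from atrophy.

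Total counts per muscle lay between 36684220 and 46312167. Vdr, the targeted gene, was counted at a CPM (counts scaled to library size) of 1.9 to 6.73 (median 3.93) in VDR-OE control legs and at 5.45 to 5930 CPM (median 2300) in VDR-OE legs. It was higher in 6 of 7 rats, with a log2 fold change of 8.57 (adjusted p = 2.01e-08 by the likelihood ratio test of edgeR and 0.0228 by its quasi-likelihood test), and in rat 419 the within-rat log2 ratio was -0.08. The counts do not separate rat Vdr from reads of the mouse plasmid that align to it. With the hairpin, Vdr was at 1.39 to 8.11 CPM (median 3.41) in control legs and 1.94 to 6.53 CPM (median 2.59) in VDR-KD legs, was lower in 4 of 7 rats, and did not pass the test (log2 fold change -0.25, adjusted p = 0.929). The Vdr counts thus show no knock-down that can be told from the spread of the within-rat ratios. The right legs of that arm are named here by their label only. Of 9 markers of mature fast muscle none was among the named genes, so the tissue label was not checked by them.

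In the VDR-OE arm, which chose the members, 13 members were higher and 17 lower in the VDR-OE leg than in the control leg of the same rats, where 49.5% of all genes were higher. Of the other named genes tested in both arms, 1167 were higher and 672 lower. The members' log2 fold changes ran from -0.89 for Fbxo44 to 0.97 for Klhl6, and their median size was 0.43, where it was 0.19 over all 14526 genes tested. Every Usp-prefixed gene was lower (7 of 7), as were the cullin and the HECT ligase, and every BTB-Kelch gene was higher (3 of 3), while the E2 enzymes (2 higher, 4 lower), TRIM (3 and 2), RNF (3 and 1) and F-box genes (2 and 1) were divided. The likelihood ratio test called 29 of the 30 members and the quasi-likelihood test 15, where they called 15.6% and 7.14% of all genes tested. Since small p-values of this contrast named the members, these counts and all values of this arm are descriptions, given with no test. These are bulk muscles, in which fewer cells of a type and less RNA per cell cannot be told apart.

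**Figure D1:**
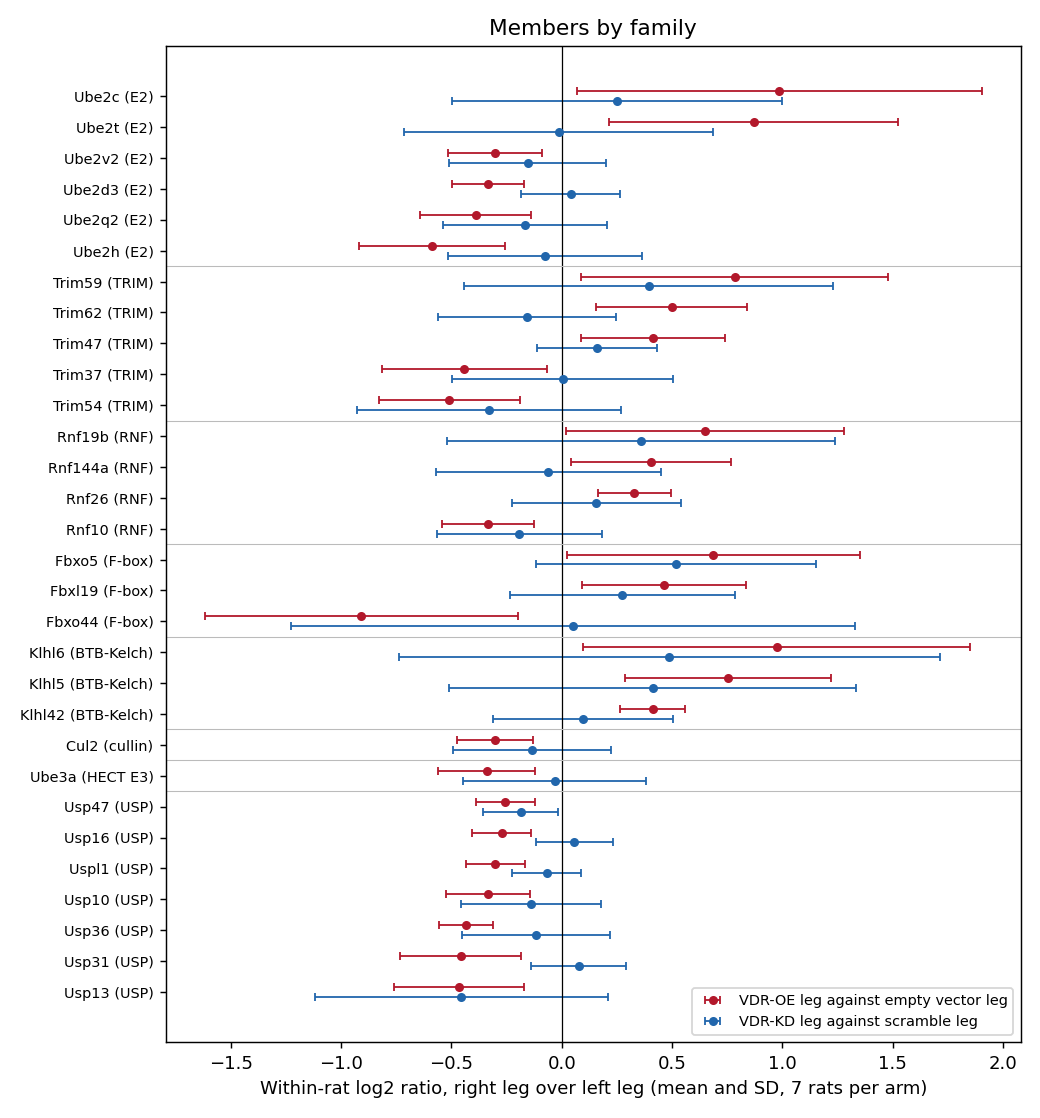
Mean within-rat log2 ratio of the right over the left leg (horizontal axis, bars SD over 7 rats) for each of the 30 members, by family, in the VDR-OE arm (red) and the VDR-KD arm (blue). All 7 Usp-prefixed genes lie left of 0 in red, all 3 BTB-Kelch genes right of it, and the blue means lie between -0.46 and 0.52 with SDs from 0.16 to 1.28.

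In the VDR-KD arm, which had no part in the choice, no member passed the test. None of the 30 was called by the likelihood ratio test, the quasi-likelihood test or DESeq2, and none had an unadjusted p under 0.05 by either edgeR test. Over all 14652 genes tested, 0% were called by both edgeR tests and 2.74% (401 genes) had an unadjusted p under 0.05 by the likelihood ratio test and 2.7% by the quasi-likelihood test. The smallest member p-values were 0.0534 for Fbxo5 and 0.0624 for Usp13, with adjusted p from 0.919 to 0.997 over the members. The log2 fold changes ran from -0.46 to 0.53, with 16 members above 0 and 14 below, where 51.6% of all genes were above 0. Their median size of 0.15 was close to that of all genes, 0.157, while the SD of the within-rat ratios reached 1.28. Leaving out rat 423 raised the calls to 127 of all genes and 1 member, Rnf19b, and moved the genes with an unadjusted p under 0.05 to 2898.

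Promoters were printed for members that hold the CCAAT box, a motif bound by nuclear factor Y and frequent in promoters of cell cycle genes, since some of the higher members take part in the cell cycle. Promoter sequences of RefSeq (GRCr8, 250 bases before to 50 after the start of a gene, 1 per gene) were found for 28 of the 30 members, without Ube2c and Ube2v2. The letters CCAAT, searched on both strands, were in 9 of the 28 (32.1%) and in 37.7% of all 27457 promoters. They were in 6 of 12 higher and 3 of 16 lower members. The promoters of 2 higher members, the E2 enzyme Ube2t (chr13:48954916-48955215, plus strand) and the F-box protein Fbxo5 (chr1:44607732-44608031, minus strand), are shown with those of 2 lower members, the deubiquitinase Usp13 (chr2:117505193-117505492, plus strand) and the muscle ligase Trim54 (chr6:30978426-30978725, minus strand). They are given 5′ to 3′ on the strand of the gene, with CCAAT or its reverse complement ATTGG in capitals.
Ube2t: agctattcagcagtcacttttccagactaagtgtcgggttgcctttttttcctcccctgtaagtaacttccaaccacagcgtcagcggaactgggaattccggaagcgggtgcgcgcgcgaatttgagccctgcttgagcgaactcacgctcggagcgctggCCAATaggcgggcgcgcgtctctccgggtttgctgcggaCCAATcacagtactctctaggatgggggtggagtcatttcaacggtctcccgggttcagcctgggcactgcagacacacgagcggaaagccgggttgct
Fbxo5: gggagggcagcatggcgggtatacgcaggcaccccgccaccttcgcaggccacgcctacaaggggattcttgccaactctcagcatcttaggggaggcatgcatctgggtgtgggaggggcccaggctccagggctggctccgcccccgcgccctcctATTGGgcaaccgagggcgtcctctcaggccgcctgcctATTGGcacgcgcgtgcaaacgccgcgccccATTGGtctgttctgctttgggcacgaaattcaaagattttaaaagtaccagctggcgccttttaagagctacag
Usp13: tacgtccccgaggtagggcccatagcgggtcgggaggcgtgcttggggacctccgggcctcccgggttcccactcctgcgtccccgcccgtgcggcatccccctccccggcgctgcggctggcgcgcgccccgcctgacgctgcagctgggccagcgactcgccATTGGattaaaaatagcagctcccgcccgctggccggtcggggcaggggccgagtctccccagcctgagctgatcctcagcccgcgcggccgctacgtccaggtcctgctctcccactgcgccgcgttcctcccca
Trim54: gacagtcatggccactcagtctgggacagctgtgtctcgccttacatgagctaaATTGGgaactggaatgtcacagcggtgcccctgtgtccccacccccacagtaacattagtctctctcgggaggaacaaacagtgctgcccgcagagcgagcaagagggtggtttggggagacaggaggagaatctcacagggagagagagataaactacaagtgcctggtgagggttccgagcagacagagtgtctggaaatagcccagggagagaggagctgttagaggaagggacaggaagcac

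In Ube2t the motif began 88 and 49 bases before the start on the gene's own strand, and in Fbxo5 the reverse complement began 92, 54 and 24 bases before it. Usp13 and Trim54 each held 1 reverse complement, 86 and 196 bases before the start. The Sp1-type box GGGCGG was in 18 of 28 members (64.3%, with 34.9% of all promoters), in 7 of 12 higher and 11 of 16 lower members. TTTGAA, the core of the cell cycle homology element, was in 3 members (10.7%, all promoters 18.1%). Of the core hexamers of vitamin D response elements, AGGTCA was in 3 members (10.7%, all promoters 15.7%) and AGTTCA in 3 (10.7%, all promoters 14.4%). Direct repeats of either hexamer with 3 bases between were in none, and in 0.0182% and 0.00728% of all promoters. All promoters include those of genes with too few reads to be tested, whereas every member was tested. No share is therefore read as a trait of the members. These are matches of letters in a 300-base window and show no binding.

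Among the E2 enzymes, Ube2c and Ube2t were higher and the other 4 lower in VDR-OE legs. Ube2c, which loads ubiquitin onto mitotic cyclins with the anaphase-promoting complex, was at 0.973 to 3.84 CPM (median 2.88) in VDR-OE control and 3.23 to 7.24 CPM (median 4.87) in VDR-OE. It was higher in 7 of 7 rats, with a mean log2 ratio of 0.99 ± 0.92 (SD, n = 7), but the groups overlapped and the ratio ran from 0.07 in rat 416 to 2.31 in rat 422. In VDR-KD control it was at 2.34 to 5.91 CPM (median 3.74) and in VDR-KD at 2.38 to 7.6 CPM (median 5.99), higher in 5 of 7 rats (0.25 ± 0.75, adjusted p = 0.919).

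Ube2t, the E2 enzyme of the Fanconi anaemia DNA repair pathway, was among the members with the fewest reads. It was counted 7 to 27 times per muscle (0.213 to 0.67 CPM, median 0.544) in VDR-OE control and 23 to 43 times (0.677 to 1.01 CPM, median 0.871) in VDR-OE. The 7 control legs lay below the 7 VDR-OE legs, by a margin far smaller than either group's range. Between VDR-KD and its control the mean log2 ratio was -0.01 ± 0.70 (SD, n = 7) and the right legs ran from 0.264 to 1.47 CPM around the control legs (0.509 to 0.903 CPM).

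Ube2h, the E2 enzyme of the CTLH ligase complex, stood at 199 to 302 CPM (median 218) in VDR-OE control and 132 to 172 CPM (median 156) in VDR-OE. The groups did not overlap, and every rat was lower on the right (-0.59 ± 0.33, SD, n = 7). In VDR-KD control and VDR-KD it stood at 116 to 174 CPM (median 154) and 104 to 185 CPM (median 128), lower in 4 of 7 rats (-0.08 ± 0.44, adjusted p = 0.953). Both groups of the VDR-KD arm thus covered the range of the VDR-OE legs and lay below the VDR-OE control legs, each arm being normalised in the same table but run in other rats. Ube2d3, a partner of many RING ligases, was also lower in 7 of 7 VDR-OE legs (-0.33 ± 0.16, medians 235 and 174 CPM). Its medians in the VDR-KD arm were 186 and 184 CPM (0.04 ± 0.22, adjusted p = 0.964). Ube2q2 (-0.39 ± 0.25) and Ube2v2, a partner of Ube2n that has no catalytic cysteine of its own (-0.30 ± 0.21), were lower in 6 of 7 VDR-OE legs. In VDR-KD legs they were lower in 5 and 4 of 7 rats (adjusted p = 0.919 for both).

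**Figure D2:**
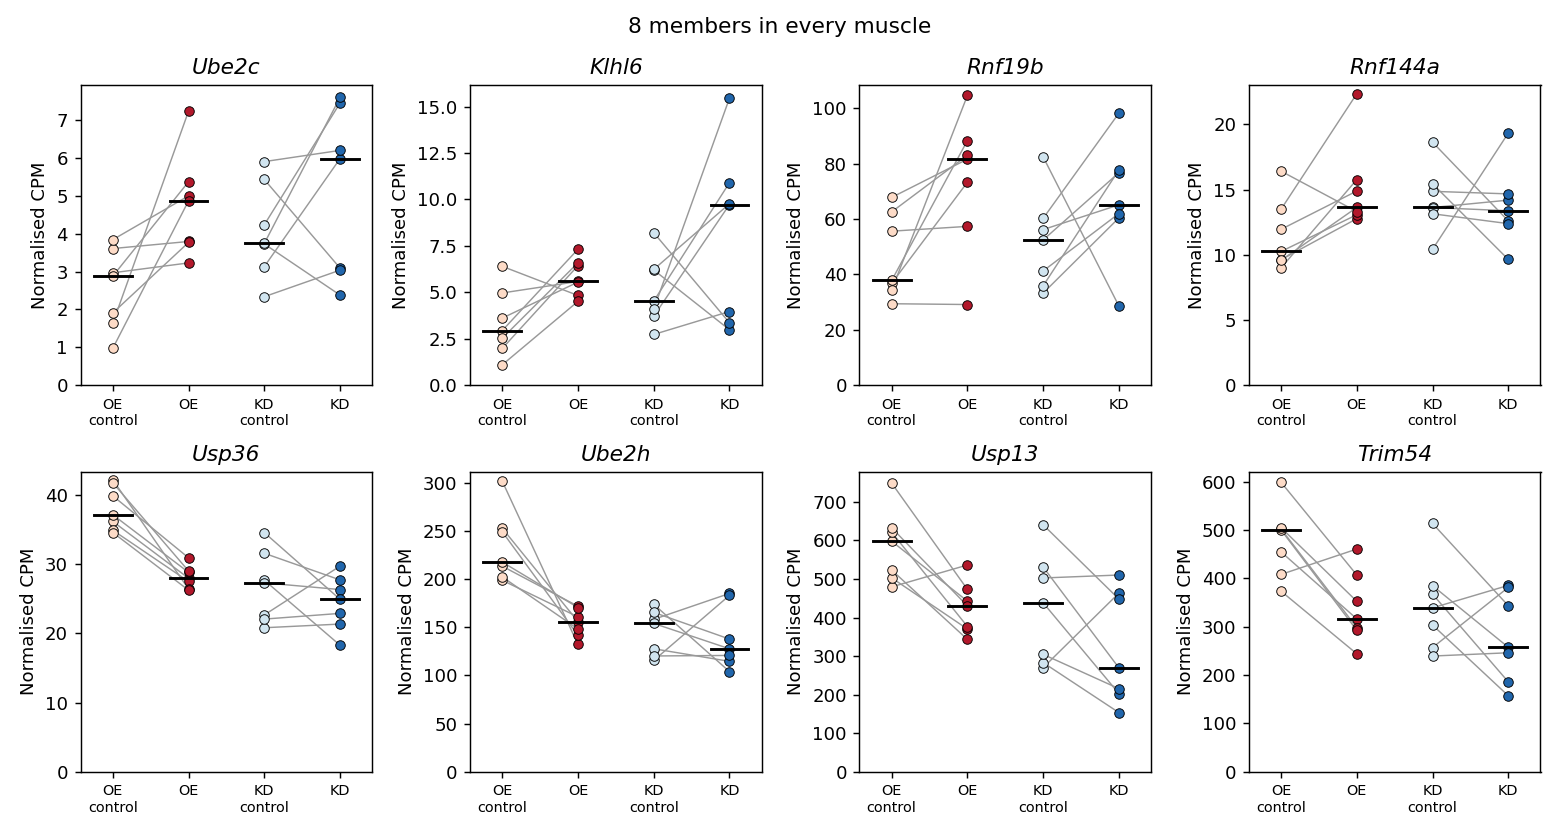
Normalised CPM (vertical axes, from 0) of 8 members in every muscle of the 4 groups, with grey lines joining the legs of a rat and black bars at the group medians. Usp36 and Ube2h separate the VDR-OE legs from their controls, the other 6 overlap, and no member separates the VDR-KD legs from theirs.

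The only muscle-restricted ligase that could be named was Trim54 (MuRF3), a microtubule and sarcomere protein of the MuRF family. It stood at 373 to 598 CPM (median 500) in VDR-OE control and at 244 to 460 CPM (median 316) in VDR-OE, lower in 6 of 7 rats (-0.51 ± 0.32, SD, n = 7). Rat 416 went the other way (0.17), and the groups overlapped. For VDR-KD the medians were 339 CPM in control and 257 CPM in VDR-KD legs, ranges 239 to 513 and 157 to 385 CPM, lower in 4 of 7 rats (-0.33 ± 0.60, adjusted p = 0.919). The other 16 of 17 ligases listed as muscle-specific or linked to atrophy, among them Trim63, Fbxo32, Fbxo40, Trim55, Klhl40 and Klhl41, carry no name in the tables used here and were not analysed here. By quantitative PCR the study reported higher Trim63 in VDR-OE muscle, as an example of raised proteasomal degradation markers.

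Among the other TRIM ligases, Trim59 (0.78 ± 0.70), Trim62 (0.50 ± 0.34) and Trim47 (0.41 ± 0.33) were higher in VDR-OE legs, in 6, 6 and 5 of 7 rats. Trim59 had a median of 1.94 CPM (1.55 to 3.27) in VDR-OE control and of 4.52 CPM (2.35 to 5.46) in VDR-OE, and stood at 3.78 and 5.83 CPM in VDR-KD control and VDR-KD. Trim62 was counted only 12 to 57 times per muscle in the VDR-OE arm, where its groups (0.365 to 0.922 and 0.765 to 1.25 CPM) overlapped, and it was the member not called there by the likelihood ratio test. Trim37, a ligase that limits centrosome-independent spindle poles and is mutated in mulibrey nanism, was lower in 6 of 7 VDR-OE legs (-0.44 ± 0.37, medians 22.2 and 16.8 CPM). With the hairpin, Trim59 (0.39 ± 0.84) and Trim47 (0.16 ± 0.27) were higher in 5 and 6 of 7 rats (adjusted p = 0.919 for both, likelihood ratio test). Trim37 was centred on 0 there (0.004 ± 0.50, adjusted p = 0.997), and Trim62 went the other way from the VDR-OE arm (-0.16 ± 0.40, adjusted p = 0.925).

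Of the RNF ligases, Rnf26, an endoplasmic reticulum ligase that tethers endosomes around the nucleus, separated the legs. It stood at 7.86 to 9.24 CPM (median 8.68) in VDR-OE control and 9.67 to 11.4 CPM (median 11.1) in VDR-OE, higher in 7 of 7 rats (0.33 ± 0.16, SD, n = 7). The change was small and the groups did not overlap. Its VDR-KD arm medians were 9.65 and 12.9 CPM (0.16 ± 0.38, adjusted p = 0.919), higher in 5 of 7 rats.

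Rnf19b and Rnf144a are ligases of the RING-between-RING type, the first described in natural killer cells and macrophages. Rnf19b was at 29.4 to 67.8 CPM (median 37.8) in VDR-OE control and 29.1 to 105 CPM (median 81.7) in VDR-OE, higher in 6 of 7 rats (0.65 ± 0.63, SD, n = 7), with ratios from -0.01 in rat 419 to 1.61 in rat 422. It was higher in 6 of 7 VDR-KD legs as well (0.36 ± 0.88, adjusted p = 0.919), from 33.2 to 82.5 CPM in control and 28.6 to 98.3 CPM in VDR-KD legs. Rat 423 was the exception, with a ratio of -1.53, and without it the log2 fold change was 0.67 with an adjusted p of 0.0146 by the likelihood ratio test. None of the fits without another rat called it. Rnf144a was higher in 6 of 7 VDR-OE legs (0.40 ± 0.36) and in 2 of 7 VDR-KD legs (-0.06 ± 0.51, adjusted p = 0.966). Rnf10, a ligase that ubiquitylates ribosomal proteins, was lower in 6 of 7 VDR-OE legs (-0.33 ± 0.21, medians 465 and 363 CPM) and in 5 of 7 VDR-KD legs (-0.19 ± 0.37, adjusted p = 0.919).

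Fbxo5 (Emi1), an F-box protein that inhibits the anaphase-promoting complex, was at 0.973 to 2.51 CPM (median 1.27) in VDR-OE control and 1.8 to 3.31 CPM (median 2.76) in VDR-OE. It was higher in 6 of 7 rats (0.69 ± 0.66, SD, n = 7), with rat 416 at -0.48. In VDR-KD control it was at 0.898 to 2.75 CPM (median 2.03) and in VDR-KD at 1.66 to 4.06 CPM (median 3.03), higher in 5 of 7 rats. With a mean ratio of 0.52 ± 0.63 it had the smallest p of the members in that arm (0.0534, adjusted 0.919, likelihood ratio test), and the groups overlapped. Fbxl19, which binds unmethylated CpG islands through a zinc finger, was higher in 7 of 7 VDR-OE legs (0.46 ± 0.37) and in 5 of 7 VDR-KD legs (0.27 ± 0.51, adjusted p = 0.919). Fbxo44 was lower in 6 of 7 VDR-OE legs (-0.91 ± 0.71), from 1.24 to 3.92 CPM in control and 0.505 to 2.24 CPM in VDR-OE. It was counted 21 to 136 times per muscle over the 4 groups and had the widest spread in the VDR-KD arm (0.05 ± 1.28, adjusted p = 0.995), with ratios from -1.70 in rat 426 to 2.47 in rat 425.

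The BTB-Kelch genes encode adaptors of cullin 3 ligases, and all 3 were higher in VDR-OE legs. Klhl6, which is known from B lymphocytes, was at 1.09 to 6.4 CPM (median 2.94) in VDR-OE control and 4.51 to 7.32 CPM (median 5.58) in VDR-OE, higher in 6 of 7 rats (0.97 ± 0.88, SD, n = 7). The control legs were widely spread while the VDR-OE legs lay close together, and the groups overlapped. In VDR-KD control it was at 2.72 to 8.21 CPM (median 4.52) and in VDR-KD at 2.98 to 15.5 CPM (median 9.72), higher in 5 of 7 rats (0.49 ± 1.23, adjusted p = 0.919). Klhl5 (0.75 ± 0.47) and Klhl42 (0.41 ± 0.15) were higher in 7 of 7 VDR-OE legs. In VDR-KD legs Klhl5 was higher in 5 of 7 rats (0.41 ± 0.92, adjusted p = 0.919) and Klhl42 in 6 of 7 (0.10 ± 0.41, adjusted p = 0.937).

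Cul2, the scaffold of the von Hippel-Lindau ligase, was at 58.7 to 76.6 CPM (median 65.4) in VDR-OE control and 47.5 to 61.8 CPM (median 54.6) in VDR-OE, lower in 7 of 7 rats (-0.30 ± 0.17). It was lower in 5 of 7 rats (-0.14 ± 0.36 in VDR-KD legs, adjusted p = 0.919). Ube3a, the HECT ligase lost in Angelman syndrome, had medians of 52.3 and 40.7 CPM in the VDR-OE arm (-0.34 ± 0.22, lower in 6 of 7 rats). Its medians in the VDR-KD arm were 36.4 and 36.1 CPM (-0.03 ± 0.41, adjusted p = 0.983), so neither gene differed beyond the spread of its within-rat ratios there.

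The listed Usp-prefixed genes formed the most even of the families with several members. Their log2 fold changes ran from -0.46 to -0.25 in the VDR-OE arm, and 6 of 7 genes were lower in every rat. A choice by small p favours changes that are even between rats, and Usp genes outside the list were not analysed. Usp36, a nucleolar deubiquitinase, was at 34.6 to 42.2 CPM (median 37.2) in VDR-OE control and 26.3 to 30.9 CPM (median 28) in VDR-OE. Its groups did not overlap, with a gap narrower than either group's range, and its ratio had the smallest SD of the 30 members (-0.435 ± 0.12, SD, n = 7). In VDR-KD control it was at 20.8 to 34.6 CPM (median 27.3) and in VDR-KD at 18.3 to 29.7 CPM (median 24.9), lower in 4 of 7 rats (-0.12 ± 0.34, adjusted p = 0.919). The highest VDR-KD control leg and the lowest VDR-OE control leg were both at 34.6 CPM.

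Usp31 (9.92 to 15.7 CPM in VDR-OE control, 7.86 to 9.54 CPM in VDR-OE) and Usp47, which acts in base excision repair (175 to 210 and 141 to 170 CPM), did not overlap between the legs either. Usp10, a partner of stress granule proteins (-0.34 ± 0.19), Usp16, which removes ubiquitin from histones (-0.27 ± 0.13), and Uspl1 (-0.30 ± 0.14) were lower in 7 of 7 VDR-OE legs with overlap. Uspl1 carries the prefix but is a SUMO isopeptidase. Usp13 was lower in 6 of 7 VDR-OE legs (-0.47 ± 0.30, medians 598 and 430 CPM), again with rat 416 as the exception (0.16).

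With VDR-KD, 5 of the 7 Usp-prefixed genes were below 0 and 2 above (Usp16 and Usp31). Usp13 had the lowest mean (-0.455 ± 0.66, adjusted p = 0.919), from 270 to 641 CPM (median 438) in control and 154 to 510 CPM (median 270) in VDR-KD legs. It was lower in 5 of 7 rats, and rats 423 and 425 were higher on the right (0.02 and 0.78). Usp47 was lower in 6 of 7 rats (-0.19 ± 0.17, adjusted p = 0.919), the nearest to a shared direction of any Usp gene in that arm.

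Seen by rat, 6 members were higher and 9 lower in 7 of 7 VDR-OE legs, where 5.03% and 5.84% of all genes tested were. The legs did not overlap for 6 members, 2 higher (Ube2t and Rnf26) and 4 lower (Ube2h, Usp31, Usp36 and Usp47), where 0.503% of all genes did so in the higher and 1.31% in the lower direction. Among VDR-KD legs no member went one way in 7 rats (0.423% and 0.457% of all genes did), and the legs overlapped for all 30 (0.0137% of all genes did not overlap in the higher and 0% in the lower direction). Of the 13 members higher in VDR-OE, 11 were above 0 in VDR-KD (84.6%), where 72.1% of all genes above 0 in VDR-OE and 85.5% of the other named genes were. Of the 17 lower members, 12 were below 0 (70.6%), where 69.1% of all genes below 0 in VDR-OE and 68.3% of the other named genes were. The members' directions in the VDR-KD arm were therefore near those of the other named genes.

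**Figure D3:**
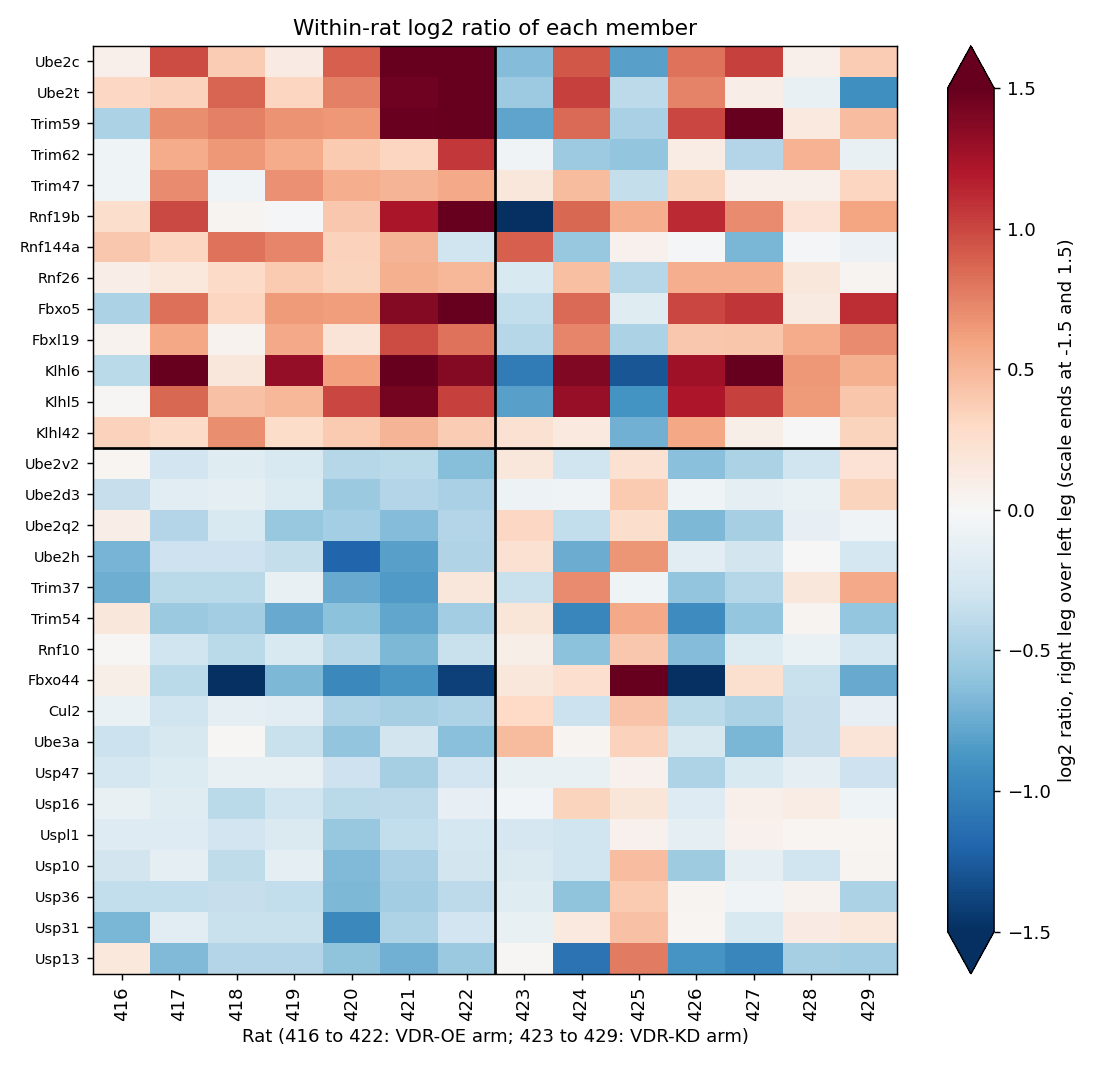
Within-rat log2 ratio of the right over the left leg (colour, red higher on the right, scale ending at -1.5 and 1.5) for the 30 members (rows, the 13 higher in VDR-OE above the line) in each of 14 rats (columns). The VDR-OE rats share 1 pattern, weakest in rat 416, which the choice and the split of the members on that arm favour. Rats 423 and 425 of the VDR-KD arm are inverted in most of the upper rows and rats 424, 426 and 427 are not.

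The pattern differed between the rats of each arm. In rats 417, 420 and 421 all 13 higher members were higher and all 17 lower members lower in the VDR-OE leg. In rat 416 it was 8 of 13 and 11 of 17, with median log2 ratios of 0.055 and -0.20. Rat 419, whose Vdr count did not rise, had 12 of 13 and 17 of 17, with medians of 0.56 and -0.30. Of the VDR-KD rats, 424, 426 and 427 had 11, 12 and 11 of the 13 higher and 12, 15 and 14 of the 17 lower on the right. Rats 428 and 429 had 11 and 10 of 13 and 10 of 17 each. In rats 423 and 425 only 3 and 2 of the 13 were higher, with medians of -0.42 and -0.48, and 8 and 1 of the 17 were lower. Right legs of the same label thus went opposite ways. The share of a member's sum of squares between the legs was 7.92% at the median in the VDR-KD arm (between rats 45.3%). In the VDR-OE arm it was 51.8% (between rats 26.9%). The members were chosen on the leg difference of the VDR-OE arm, so the shares of the 2 arms are not compared.

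Values of markers of other cells are set beside this pattern. The markers could be named only through the same list, so their direction in the VDR-OE arm, as that of the members, was fixed by the choice. Of 11 macrophage markers 8 were named, among them Csf1r, C1qb, C1qc and Cd163. Their summed level was 207 to 802 CPM in VDR-OE control, 543 to 1620 CPM in VDR-OE, 517 to 1990 CPM in VDR-KD control and 441 to 2710 CPM in VDR-KD legs. Their mean log2 ratio was 2.59 and 2.35 in rats 421 and 422, where the medians of the 13 higher members were largest (1.225 and 1.06), and 0.15 in rat 416. In rat 419 it was only 0.23 beside a member median of 0.56, in rats 418 and 420 it was 1.002 and 1.114 beside 0.38 and 0.54, and in rat 417 it was 1.41 beside 0.695, so the order of the rats was not the same for both. It was -0.57 and -1.58 in rats 423 and 425, and 0.62 to 1.75 in the other 5 rats of that arm. All 15 proliferation markers were named, Mki67 and Top2a among them, and summed to 40.2 to 109 CPM in VDR-OE control, 104 to 182 in VDR-OE, 76.1 to 157 in VDR-KD control and 74.9 to 235 CPM in VDR-KD legs. Their mean ratio was 1.81 and 1.75 in rats 421 and 422, and below 0 in rats 423, 425 and 428 (-0.49, -0.69 and -0.03). No macrophage or proliferation marker was at 0 in any muscle.

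**Figure D4:**
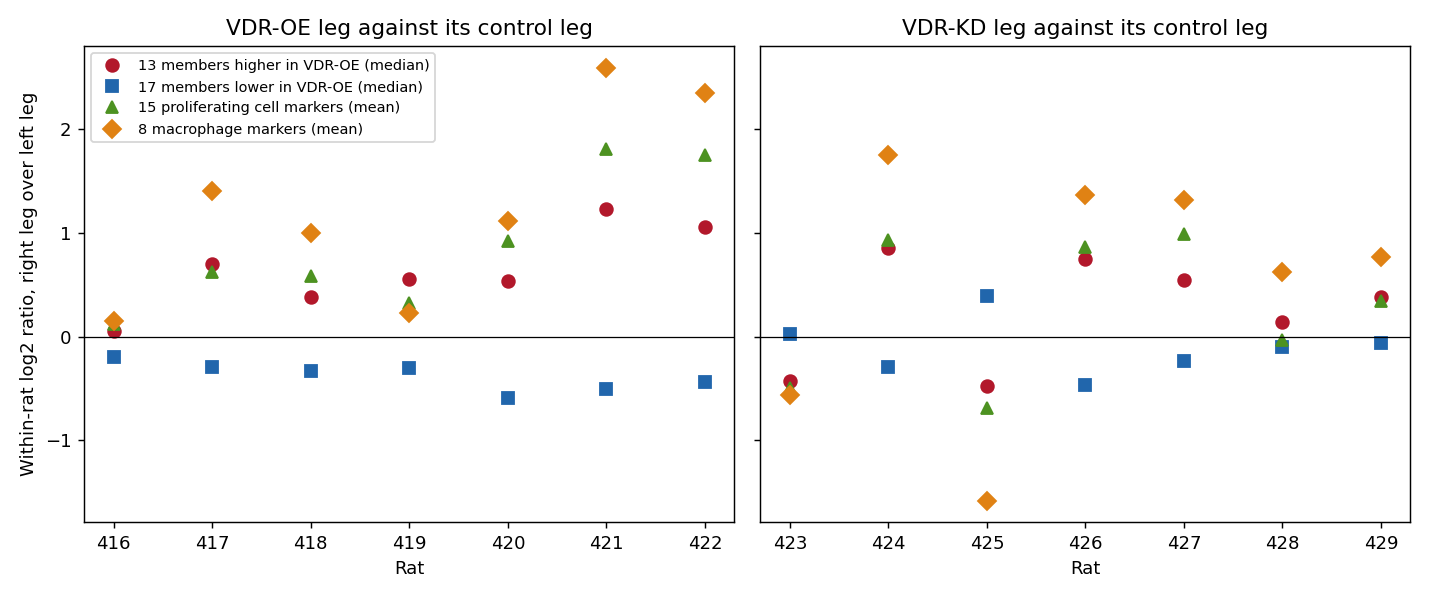
Within-rat log2 ratio of the right over the left leg (vertical axis) in each rat of the VDR-OE arm (left) and the VDR-KD arm (right), as the median of the 13 members higher in VDR-OE (circles) and of the 17 lower (squares), and the mean of the proliferation (triangles) and macrophage markers (diamonds). The circles and the diamonds lie below 0 in rats 423 and 425 and above 0 in the other 12 rats.

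The named lymphocyte, fibroblast and stress genes come from the same list. Of 7 genes listed as lymphocyte markers 2 were named (Cd3d and Cd4). Cd4 does not mark lymphocytes alone, and it made up most of their sum (VDR-OE control median 30.4 CPM, Cd3d 2.01 CPM). The 2 genes summed to 12.7 to 56.3 CPM in VDR-OE control, 39.3 to 90.3 in VDR-OE, 36 to 145 in VDR-KD control and 35.5 to 167 CPM in VDR-KD legs. Their mean log2 ratio was 2.80 and 2.86 in rats 421 and 422, -0.13 in rat 416 and 0.362 to 1.596 in the other VDR-OE rats, and it was -1.33 and -1.38 in rats 423 and 425 and 0.73 to 2.12 in the other VDR-KD rats. Of 6 fibroblast markers 5 were named, with sums of 1510 to 5180, 2180 to 8520, 2830 to 8690 and 2560 to 8710 CPM in the same order, and mean ratios of 0.375 to 1.31 in the VDR-OE and -1.37 to 0.63 in the VDR-KD rats. The 7 stress response genes, Fgf21 and Trib3 among them, summed to 211 to 746 CPM in VDR-OE control and only 119 to 200, 109 to 309 and 104 to 289 CPM in the other groups. Their mean ratio was -3.02 to -0.97 in the VDR-OE and -2.44 to 1.46 in the VDR-KD rats, and none of these markers was at 0 in any muscle. No endothelial marker (of 5) and no marker of regenerating fibres (of 5) was named. The part of these cells and of the stress genes in the members' values was not tested.

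Over the 4 groups, the VDR-OE control legs stood at one end for most members. They had the lowest of the 4 medians for all 13 members higher in VDR-OE, and the highest for 16 of the 17 lower members, all but Trim37. The same was so for 69.1% of all genes higher and 69.8% of all genes lower in VDR-OE. These orders share the VDR-OE control legs with the contrast that chose the members, so nothing is read from the counts. The VDR-OE control legs also varied more between rats than the VDR-OE legs for 18 of 30 members (60%, all genes 64.1%), whereas in the VDR-KD arm the control legs varied more for 5 of 30 (16.7%, all genes 27%).

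The other ubiquitin pathway genes with a name, 13 ligases and adaptors, 2 deubiquitinases, 4 proteasome genes and 2 SUMO proteases, came from the same list and were selected by the same p-values. Of these 21, 8 were higher and 13 lower in VDR-OE (6 and 12 called by the likelihood ratio test, where 10.5% and 5.06% of all genes were), among the lower ones the proteasome genes Psmd5, Psmd11 and Psmg2, with Psme1, a subunit of the interferon-inducible activator, higher. For VDR-KD, 11 were above 0 and 10 below with a median of 0.03, and none was called (smallest unadjusted p 0.244, likelihood ratio test, smallest adjusted p = 0.919). The 5 with the smallest p there were the ligase Sh3rf1 (0.245 ± 0.50), the F-box protein Skp2 that targets cell cycle inhibitors (0.27 ± 0.63), the cullin 2 adaptor Fem1b (-0.14 ± 0.18), the deubiquitinase Otud6b (-0.12 ± 0.19) and the ligase Mgrn1 (-0.15 ± 0.36). Their VDR-OE values were 0.42 ± 0.40, 0.67 ± 0.52, -0.30 ± 0.14, -0.38 ± 0.16 and -0.38 ± 0.22 in the same order. In VDR-KD only Fem1b reached 6 of 7 rats.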

How the data were processed

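The authors trimmed 75 bp paired reads with trimmomatic, aligned and counted them per gene with Rsubread (rat genome 6.0, Ensembl 89, per the labels) and deposited raw counts for 28 muscles, 36684220 to 46312167 per muscle. The submitters' processing notes also list bcl2fastq 2.17.1.14, FastQC 0.11.5 and edgeR 3.18.1. Whether counting used strand is not given in the sources used here, so overlapping antisense genes may share reads.

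Separate models for the arms were made in edgeR 4.0.16 (R 4.3.3) from genes above 0.239 (VDR-OE) or 0.251 CPM (VDR-KD) in at least 7 muscles, which is what 10 reads come to in a library of median size. They used TMM normalisation, a block for each rat and edgeR's likelihood ratio test after glmFit, the study's stated method, with Benjamini-Hochberg adjustment over all genes at 0.05. All 30 members passed the filter in both arms. Levels are CPM after TMM over all 28 muscles, and within-rat ratios are log2 with a prior count of 0.5, as mean and SD. The legs of a rat are paired by the animal identifier. Correlated across genes, the deviations of a rat's legs from their group means had a mean r of 0.248 (-0.233 to 0.586) in the VDR-OE and -0.107 (-0.593 to 0.318) in the VDR-KD arm, so the pairing comes from the labels. With the block, differences in level between rats are set aside. P-values weigh the difference between legs against its variation from rat to rat, each rat being the source of 1 muscle per group. The fits were also run on counts simulated for the genes of the VDR-KD arm, with no difference in level between rats. There the likelihood ratio test was liberal with 7 pairs, calling too many genes. That setting differs from these paired legs, so it does not show how liberal the test is here. The quasi-likelihood test is printed beside the likelihood ratio test as a caution. Fits without 1 rat used the likelihood ratio test only.

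The members and all gene lists were chosen with earlier results of these data known. Named are all members, Vdr, the muscle ligases that could be paired with an identifier, and the 5 other pathway genes with the smallest p in the VDR-KD arm. Psmd5, Psmd11, Psmg2, Psme1 and single markers were named besides, after their values were seen. Names come only from Supplemental File 1, whose fold changes and p-values enter no value given here. Whole families and protein sequences were not analysed here, and 1 gene left out by the rule is not reported. Alternatives were the quasi-likelihood test, DESeq2 1.42.0, relative log expression factors, no block, other filters, a fit of all 28 muscles and leaving out each rat.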

Additional observations from a re-analysis of the deposited data

Results flagged for a closer look

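Among 124 groups of 7 values (30 members and Vdr in 4 groups), 7 held a muscle far from the other 6 on the log2 scale. Chance alone marks about 1 in 20 groups, so this number is near what chance gives. Rnf19b was at 28.6 CPM in the VDR-KD leg of rat 423, with the next lowest at 60.4. Fbxo5 was at 0.898 CPM in the VDR-KD control leg of rat 429, with the next at 1.7. In the VDR-KD control leg of rat 425, Ube2v2 was at 31 CPM (next 35.8) and Usp10 at 36.5 CPM (next 45.3), both the lowest of their group. Rat 419, in which Vdr did not rise, held the other 3, with Rnf144a highest at 22.4 CPM (next 15.8) and Ube2d3 lowest at 139 CPM (next 170) in the VDR-OE leg, and Klhl42 highest at 5.17 CPM (next 3.8) in the control leg. No member went one way in 7 rats of one arm and the other way in 7 of the other, and the difference between the arms was not tested.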

How the results depend on the processing

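In the VDR-OE arm the members and the 5 other pathway genes with the smallest p in the VDR-KD arm kept direction under every alternative run. The named proteasome genes were not compared in this way. The 2262 calls over all genes became 1037 with the quasi-likelihood test, 1390 with no replicate block, which ignores the pairing of legs, and 663 in 1 fit of all 28 muscles. Leaving out 1 rat gave 908 (without rat 421) to 5069 (without rat 416), with 930, 1143 and 1449 without rats 420, 417 and 422. In the VDR-KD arm the 0 calls became 4 with the filter passed in 2 muscles, 5 with no filter, and 0 to 127 with 1 rat left out (127 without rat 423, 1 without rat 429). The 401 genes with an unadjusted p under 0.05 became 625 with DESeq2, 810 with no filter, 947 in the fit of all muscles, and 164 to 2898 with 1 rat left out (2898 without rat 423, 1558 without 425, 216 without 428, 209 without 426, 170 without 424, 164 without 427). Members called stayed at 0 except without rat 423 (range 0 to 1, Rnf19b, log2 fold change 0.67), and members above 0 numbered 14 to 17.

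Only members near 0 in the VDR-KD arm changed sign. With no replicate block, Trim37 had a log2 fold change of -0.007 in place of 0.008, and no member of that arm was called with or without the block. With 1 rat left out the log2 fold changes ran from -0.013 to 0.082 for Ube2d3, -0.188 to 0.036 for Ube2h, -0.136 to 0.155 for Ube2t, -0.329 to 0.30 for Fbxo44, -0.115 to 0.086 for Ube3a, -0.217 to 0.049 for Rnf144a and -0.113 to 0.103 for Trim37. The cause of these changes was not tested. Without TMM factors the median of all genes moved from 0.009 to 0.24 in the VDR-KD and from -0.004 to 0.113 in the VDR-OE arm. The precision is limited by 7 rats per arm, the few reads of Ube2t, Trim62, Fbxo44 and Fbxo5, and names selected by small p.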
